A study of Mus musculus with 10 samples.

Results

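Macrophages and other myeloid cells were followed in this series through 41 genes, chosen by name as markers of those cells, out of 18193 genes that the array named through a probe set with a single gene. Each gene was read on the probe set with the highest mean over all 10 arrays, and all 41 had one. The samples were aortas of male mice, 5 arrays of wild type (C57Bl/6) and 5 of mice with a mutation in NPAS2, a transcription factor of the circadian clock, on a C57Bl/6J background. The animals of both groups were kept in a cycle of 12 h light and 12 h dark for 2 weeks or more. They then stayed in the dark for 30 h or more and were killed at zeitgeber time 14 h. The kind of mutation is not given in the sources used here, nor is the age of the mice. All aortas were flushed with buffer through the left ventricle before dissection. The labels call the tissue thoracic aorta in one place and elsewhere describe a longer piece that starts at the arch and ends in the region of the femoral arteries. Each array has a replicate name of its own, but whether it held RNA of a separate mouse is not said, so p values here reflect only array-to-array spread, which may be technical.

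The wall of a healthy artery holds macrophages, mostly in the adventitia, the outer layer. Resident macrophages live in the tissue for long periods, depend on signalling through the receptor Csf1r and carry scavenger and lectin receptors such as Mrc1, Lyve1 and Folr2. Monocytes are recruited from the blood through the chemokine receptor Ccr2 and can turn into macrophages after entry. In RNA from a whole tissue, more cells of a type and more RNA per cell cannot be told apart.

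No macrophage or myeloid gene passed the test between mutant and wild type, although most had a slightly higher mean in the mutant. The values are log2 levels as the authors deposited them, so a difference of 1 is a doubling. Of the 41 genes, 37 exceeded the median of the array on 5 or more of the 10 arrays and entered the fit, and none of these 37 got in through 1 group alone. By limma, adjusted by Benjamini and Hochberg's method over 22340 probe sets, 0 of 37 had an adjusted p under 0.05, against 0.183% of 10943 tested genes, and an ordinary one-way analysis also gave 0, against 0.0457% of tested genes. The lowest limma adjusted p among them was 0.163. At an unadjusted limma p under 0.05 there were 9, all higher in the mutant (24.3% of the 37, where 15% of tested genes passed in either direction and 5.21% passed with a higher mean in the mutant). Lyz1 and Lyz2 count separately among the 9, though they may share signal. An exact two-sided permutation test, also unadjusted, gave p values of 0.00794 for Mgl2, 0.0238 for Cd14, Lyz1 and Lyz2, and 0.0317 for Ccr2 and Fcgr3. It gave 0.0476 for C1qc and 0.0556 for Adgre1 and Fcer1g. Over all 41 genes, the mutant mean was the higher one for 35 and the lower one for 6. That is 85.4% higher, where 44.1% of tested genes and 60.5% of all named genes without the filter were. The median change of the 41 was 0.14 on the log2 scale, with changes from -0.10 to 0.45, and that of all named genes without the filter was 0.01. Over the 37 tested genes the median was 0.16, and over all tested genes it was -0.02. Without wild type F14_2 the median of the 41 was 0.09. Only Mgl2, 2.7% of the 37, had groups that did not overlap, against 4.21% of tested genes in either direction and 1.82% with the mutant higher. The count of 9 depended on single arrays: it was 4 without wild type F14_2 and 14 without mutant F13. It was 1 without the 4 arrays richest in skeletal muscle signal (wild type F16 and mutant F12, F19 and F20), a set chosen after seeing the data, which left 2 mutant arrays. The shares of 15% and 5.21% are from all 10 arrays, and those over all tested genes in these smaller sets were not computed.

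**Figure D1:**
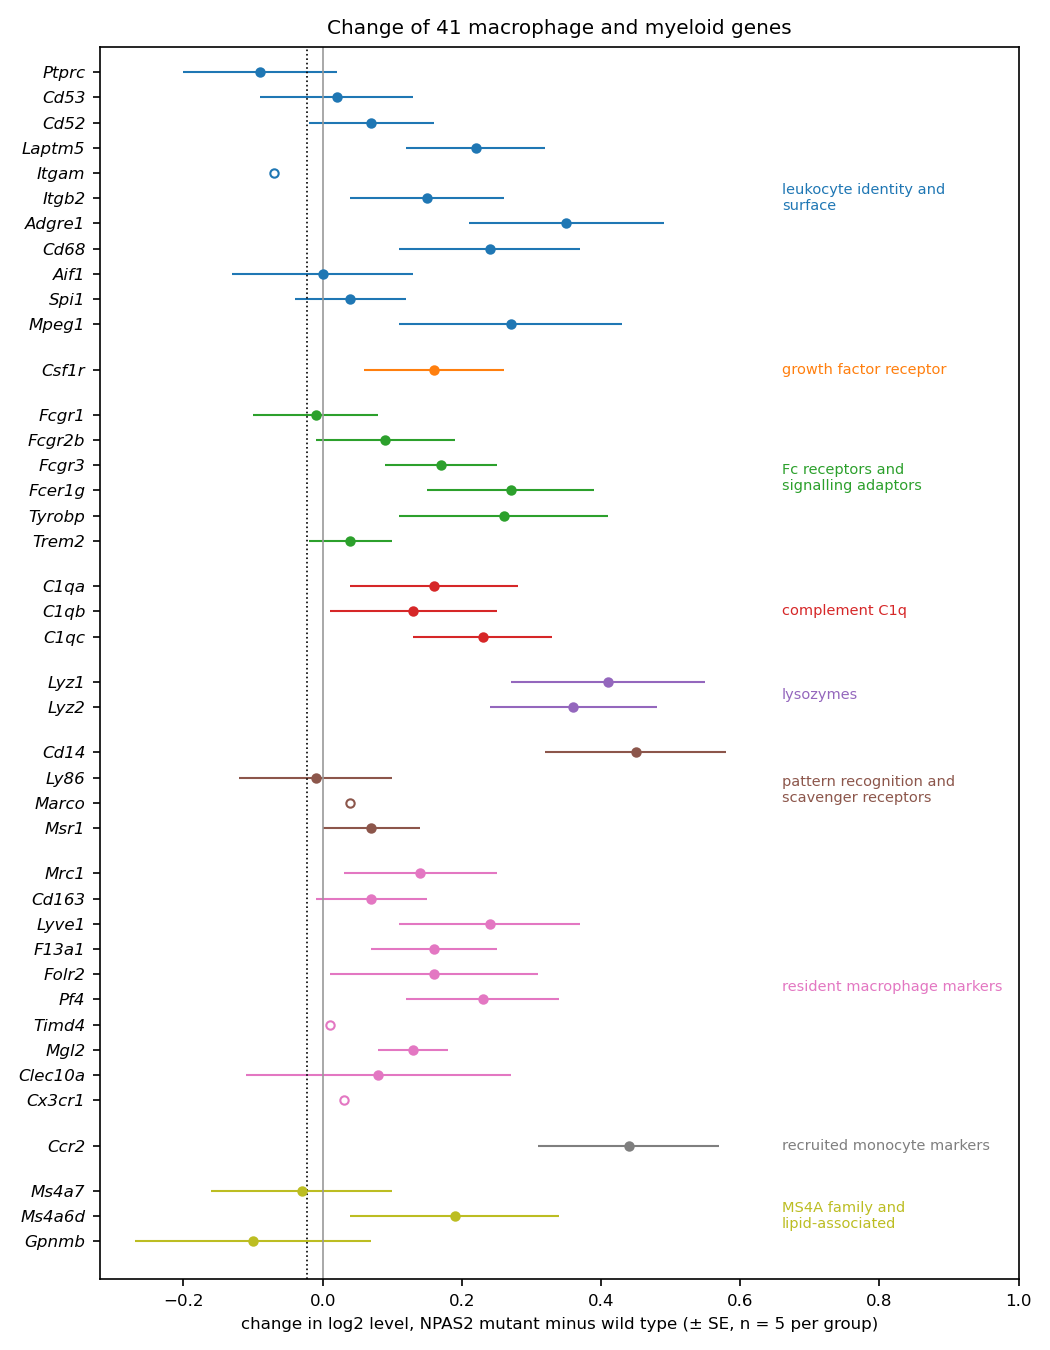
Change in log2 level (mutant minus wild type, horizontal axis) of the 41 genes, grouped by role, with the limma standard error as bars (n = 5 arrays per group) and open circles for the 4 genes too dim to be tested. The dotted line is the median change of all tested genes, -0.02, and 35 of the 41 genes had the higher mean in the mutant, counting Aif1, whose change rounds to 0.00.

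Among the genes that mark leukocytes in general, values were close in both groups. Ptprc, the CD45 phosphatase of all leukocytes, had log2 levels of 5.90, 5.63, 5.94, 5.96 and 6.16 on wild type F11, F14_2, F15, F16 and F17. On mutant F12, F13, F18, F19 and F20 it had 5.61, 5.89, 5.90, 6.03 and 5.69. The 2 ranges cover each other almost wholly, with a change of -0.09 ± 0.11 (SE, limma adjusted p = 0.687). Values of further genes are given in the same order of arrays. Laptm5, a lysosomal membrane protein of blood-derived cells, stood at 6.63, 6.71, 7.10, 6.80 and 6.94 in wild type and at 6.98, 6.85, 7.16, 7.20 and 7.07 in the mutant. It differed by 0.22 ± 0.10 (SE, adjusted p = 0.334), and this probe set carries the suffix _x_at, which marks probes that other transcripts may share. A second tested Laptm5 probe set differed by 0.05 (adjusted p = 0.826). Cd53, a tetraspanin of leukocytes, differed by 0.02 and Cd52, a small surface glycoprotein, by 0.07. Itgb2, the integrin chain common to leukocyte integrins, differed by 0.15, or by 0.04 without mutant F19, and its partner chain Itgam (CD11b) was at or below 3.14 on all 10 arrays, under the array median throughout. Spi1, the transcription factor PU.1 of the myeloid lineage, lay between 3.02 and 3.40, at about the array medians of 3.14 to 3.20.

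Genes more particular to macrophages had changes from 0.00 to 0.35. Adgre1, an adhesion receptor widely used to mark mouse macrophages, had 5.87, 5.41, 5.79, 5.54 and 5.87 in wild type and 5.78, 5.87, 5.98, 6.10 and 6.51 in the mutant. Mutant F18, F19 and F20 lay above every wild-type array, and F12 and F13 did not. The change was 0.35 ± 0.14 (SE), with an unadjusted limma p of 0.0311 and an adjusted p of 0.273. Cd68, a glycoprotein of late endosomes and lysosomes, had means of 4.59 ± 0.24 and 4.82 ± 0.21 (SD, n = 5 each), a change of 0.24 (adjusted p = 0.403). Mpeg1, a pore-forming protein of phagocytes, had 4.59 ± 0.37 and 4.86 ± 0.15, a change of 0.27 (adjusted p = 0.440). Wild type F11 was lowest for Mpeg1 at 4.01, and without it the change was 0.12. Aif1, the actin-binding protein known as Iba1, had 3.78 in both groups, with a change of 0.00 ± 0.13 (SE).

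Csf1r, the receptor for the macrophage growth factors Csf1 and Il34, had 8.73, 8.66, 8.91, 8.96 and 8.86 in wild type and 9.01, 8.69, 8.96, 9.08 and 9.19 in the mutant. The groups overlapped over most of their range, and the difference was 0.16 ± 0.10 (SE, adjusted p = 0.433). Its other 2 probe sets differed by 0.06 and 0.10 and did not pass.

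Lyz2 encodes the lysozyme of macrophages and neutrophils and Lyz1 that of Paneth cells of the gut, and the proteins break down bacterial cell walls. Lyz2 had 9.34, 9.09, 9.45, 9.14 and 9.33 in wild type and 9.57, 9.34, 9.47, 9.82 and 9.97 in the mutant. All mutant arrays but F13 lay above every wild-type array. Its change was 0.36 ± 0.12 (SE), a 1.28-fold difference, with an unadjusted limma p of 0.0139 and an adjusted p of 0.212. The brightest Lyz1 probe set, whose name ends in _x_at, had 11.08, 10.76, 11.14, 11.05 and 11.27 against 11.36, 11.10, 11.36, 11.80 and 11.71. Its change was 0.41 ± 0.14 (adjusted p = 0.212), and that of a second Lyz1 probe set with this ending was 0.52 (adjusted p = 0.149). The 1 Lyz1 probe set without that ending lay between 2.67 and 2.81 on all arrays, under the array medians. Probes with that suffix may be shared between transcripts, so the signal of Lyz1 and of Lyz2 cannot be told apart there.

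**Figure D2:**
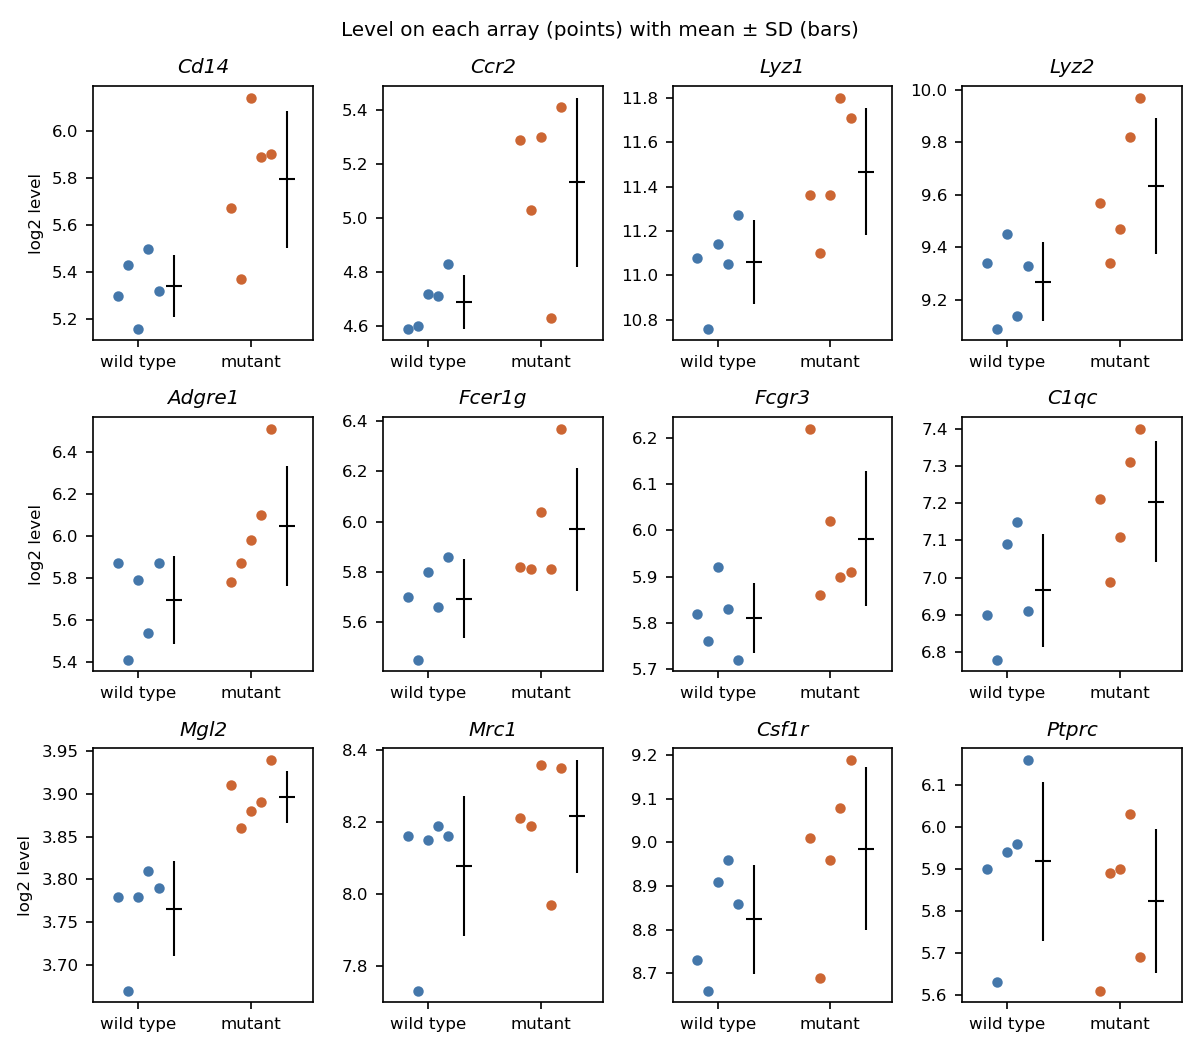
Log2 level on each array (points, wild type left and mutant right, in the order of the replicate names) of the 9 genes with an unadjusted p under 0.05 and of Mrc1, Csf1r and Ptprc, with mean ± SD as bars (n = 5). Each panel has its own axis, which does not start at 0; Mgl2 alone has groups that do not overlap, over a range of 3.67 to 3.94.

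Cd14, the co-receptor for bacterial lipopolysaccharide, had the lowest adjusted p of the 37 genes. Its levels were 5.30, 5.43, 5.16, 5.50 and 5.32 in wild type and 5.67, 5.37, 6.14, 5.89 and 5.90 in the mutant. All mutant arrays except F13 lay above all wild-type arrays. The change was 0.45 ± 0.13 (SE), or 1.37-fold, with an unadjusted limma p of 0.00522 and an adjusted p of 0.163. Leaving out each array in turn gave changes from 0.36 to 0.55 and adjusted p values from 0.105 to 0.303. Ly86, the partner of a Toll-like receptor homologue, had 5.13 ± 0.20 and 5.12 ± 0.18 (SD, n = 5 each). The class A scavenger receptors Msr1 and Marco lay between 2.94 and 3.34 and between 2.69 and 2.78.

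Of the 6 receptors for antibodies and their signalling adaptors none passed, 5 had a higher mean in the mutant and 1 a lower one. Fcgr3, a low-affinity activating receptor for IgG, had 5.82, 5.76, 5.92, 5.83 and 5.72 in wild type and 6.22, 5.86, 6.02, 5.90 and 5.91 in the mutant. Mutant F12 and F18 lay above all wild-type arrays and the other 3 did not. The change was 0.17 ± 0.08 (SE, limma adjusted p = 0.312), with an unadjusted exact two-sided permutation p of 0.0317. Fcer1g, the signalling chain shared by Fc receptors, had 5.70, 5.45, 5.80, 5.66 and 5.86 against 5.82, 5.81, 6.04, 5.81 and 6.37. Mutant F20 stood highest, and without it the change of 0.27 ± 0.12 (SE, adjusted p = 0.309) was 0.17. Tyrobp, the adaptor DAP12, had 6.25, 5.77, 6.50, 6.27 and 6.39 against 6.33, 6.25, 6.49, 6.56 and 6.84, a change of 0.26 ± 0.15 (SE, adjusted p = 0.410). Fcgr2b, the inhibitory IgG receptor, had 6.92, 6.75, 6.68, 6.99 and 7.19 against 7.09, 6.82, 7.05, 7.01 and 7.02. Its change was 0.09 ± 0.10 (SE, adjusted p = 0.652), and its other tested probe sets ran from -0.27 to 0.18. Fcgr1, the high-affinity receptor (-0.01), and Trem2, a lipid-sensing receptor that signals through Tyrobp (0.04), lay near the array median.

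The 3 chains of C1q, the first component of the classical complement pathway, are made by tissue macrophages, and their genes lie side by side. C1qa had 7.96, 7.88, 8.19, 8.12 and 8.15 in wild type and 8.14, 7.88, 8.25, 8.28 and 8.54 in the mutant, a change of 0.16 ± 0.12 (SE, adjusted p = 0.511). C1qb had 8.63, 8.61, 8.99, 8.81 and 8.60 against 8.80, 8.53, 8.94, 8.82 and 9.22, a change of 0.13 ± 0.12 (SE, adjusted p = 0.611). Both showed overlapping groups with mutant F20 at the top, and without F20 the changes were 0.08 for C1qa and 0.04 for C1qb. C1qc had 6.90, 6.78, 7.09, 7.15 and 6.91 against 7.21, 6.99, 7.11, 7.31 and 7.40, a change of 0.23 ± 0.10 (SE, limma adjusted p = 0.280). The unadjusted exact two-sided permutation p of C1qc was 0.0476. The C1qb values are from a probe set ending in _x_at, and the 1 C1qb probe set without that ending differed by 0.31 (adjusted p = 0.22).

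Promoter sequences are shown for C1qc, C1qb and Fcgr3 to set genes with and without the core motif of PU.1, the Spi1 protein, side by side. Windows of 300 bases, from 250 before to 50 after the start of the gene, came from RefSeq (GRCm38.p6) and were found for 29 of the 41 genes. The letters GAGGAAG, or CTTCCTC on the other strand, occurred in a window of 11 of the 29 genes (37.9%), against 15.4% of 27025 genes with such windows. The 11 were Marco, Fcgr3, Mrc1, Fcgr1, Cd53, Laptm5, C1qc, Pf4, Itgam, F13a1 and Trem2. Of these 11 genes 9 were tested and 2, C1qc and Fcgr3, had an unadjusted limma p under 0.05. Of the 18 genes without a match 16 were tested and 5 had such a p (Fcer1g, Lyz1, Lyz2, Mgl2 and Ccr2). Lyz1 and Lyz2 may share signal, and Cd14 and Adgre1, which also had such a p, had no window. Among all tested genes 15% had such a p, and 5.21% had it with a higher mean in the mutant. Capitals mark the match; all 3 sequences are read 5′ to 3′ along the minus strand, and a match is not a binding site.
C1qc, chr4:136892865-136893164: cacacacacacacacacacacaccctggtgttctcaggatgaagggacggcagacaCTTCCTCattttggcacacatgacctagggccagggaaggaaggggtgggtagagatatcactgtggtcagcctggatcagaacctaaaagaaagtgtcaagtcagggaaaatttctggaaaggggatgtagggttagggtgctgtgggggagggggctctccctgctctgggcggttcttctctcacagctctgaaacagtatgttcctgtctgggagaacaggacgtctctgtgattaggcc
C1qb, chr4:136886151-136886450: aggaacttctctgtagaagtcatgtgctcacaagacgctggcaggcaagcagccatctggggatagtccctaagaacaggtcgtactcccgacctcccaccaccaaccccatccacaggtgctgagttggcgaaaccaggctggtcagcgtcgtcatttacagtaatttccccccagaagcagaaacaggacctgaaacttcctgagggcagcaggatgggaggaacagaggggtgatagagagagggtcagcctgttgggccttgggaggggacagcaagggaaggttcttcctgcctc
Fcgr3, chr1:171059354-171059653: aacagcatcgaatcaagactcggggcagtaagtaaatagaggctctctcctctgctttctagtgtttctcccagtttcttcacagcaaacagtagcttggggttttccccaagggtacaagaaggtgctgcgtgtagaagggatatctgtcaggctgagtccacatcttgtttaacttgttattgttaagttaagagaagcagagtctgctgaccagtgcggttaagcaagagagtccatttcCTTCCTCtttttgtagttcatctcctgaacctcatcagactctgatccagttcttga
In these letters C1qc has its match at position -194 and Fcgr3 at position -7, counted from the start of the gene. The window of C1qb holds no match. Of the 41 genes 5 lie on chromosome 1, as Npas2 does, and 0 lie within 20 Mb of Npas2.

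Markers of resident macrophages all had a mean at or slightly above wild type in the mutant, and none passed. Of 10 such genes 8 were tested, with 1 at an unadjusted limma p under 0.05, higher in the mutant. Of all tested genes 15% had such a p in either direction and 5.21% with a higher mean in the mutant. The median change over the 10 was 0.13 (range 0.01 to 0.24), and it was 0.07 without wild type F14_2. F13a1, the A subunit of coagulation factor XIII, had 8.99, 8.76, 9.03, 8.96 and 8.99 in wild type and 9.23, 8.80, 9.20, 9.16 and 9.13 in the mutant, a change of 0.16 ± 0.09 (SE, adjusted p = 0.406). All mutant arrays but F13 were above all wild-type arrays. Pf4, the chemokine CXCL4, which platelets carry as well, had 7.77, 8.18, 8.11, 8.06 and 8.24 against 8.22, 8.20, 8.12, 8.32 and 8.63, a change of 0.23 ± 0.11 (SE, adjusted p = 0.356). Mrc1, the mannose receptor, had 8.16, 7.73, 8.15, 8.19 and 8.16 against 8.21, 8.19, 8.36, 7.97 and 8.35, a change of 0.14 ± 0.11 (SE, adjusted p = 0.547). Wild type F14_2 stood below all other arrays for Mrc1, and without it the change was 0.05. Lyve1, a hyaluronan receptor also found on lymphatic endothelium, differed by 0.24 ± 0.13 (SE, adjusted p = 0.381) and by 0.29 on its second probe set (adjusted p = 0.332).

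The remaining resident markers had changes from 0.01 to 0.16. Mgl2, a galactose-type lectin, had 3.78, 3.67, 3.78, 3.81 and 3.79 in wild type and 3.91, 3.86, 3.88, 3.89 and 3.94 in the mutant. It was the 1 gene whose groups did not overlap, by a gap between 3.81 and 3.86. The change was 0.13 ± 0.05 (SE, limma adjusted p = 0.252), at levels not far above the array medians of 3.14 to 3.20. The unadjusted exact permutation p of Mgl2 was 0.00794, the smallest that 5 against 5 arrays can give. Its relative Clec10a had 5.20 ± 0.41 and 5.28 ± 0.23 (SD, n = 5 each), Cd163, the haemoglobin scavenger receptor, 7.64 ± 0.15 and 7.71 ± 0.12, and Folr2, the folate receptor of resident macrophages, 5.02 ± 0.28 and 5.19 ± 0.24. Timd4, a receptor for phosphatidylserine on dying cells, lay between 2.36 and 2.43, and Cx3cr1, the fractalkine receptor, between 2.89 and 3.05. Both were below the array median on every array, with exact two-sided permutation p values of 0.310 and 0.373 (n = 5 per group). The 2 other dim genes, Itgam and Marco, had exact permutation p values of 0.571 and 0.0952.

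Ccr2, the receptor that guides monocytes out of the blood and the 1 recruited marker among the 41 genes, had a larger difference than any resident marker. It stood at 4.59, 4.60, 4.72, 4.71 and 4.83 in wild type and at 5.29, 5.03, 5.30, 4.63 and 5.41 in the mutant. Mutant F12, F13, F18 and F20 lay above every wild-type array, and F19 lay among the wild-type values. The change was 0.44 ± 0.13 (SE), or 1.36-fold, with an unadjusted limma p of 0.00765 and an adjusted p of 0.180. Without mutant F19 it was 0.57, and leaving out each array in turn gave adjusted p values from 0.0573 to 0.329. Its second tested probe set differed by 0.06 (adjusted p = 0.572). Another was above the array median on 2 mutant arrays only and was not tested, at 2.50 to 2.86 in wild type and 2.73 to 3.74 in the mutant, with F12 (3.74) and F20 (3.72) highest. Whether the change of Ccr2 differs from that of the resident markers was not tested. Other genes of circulating monocytes did not show the same difference. Of 9 listed, 7 had a probe set and 3 were tested, with 0 called by limma and 0 at an unadjusted p under 0.05. Plac8, a gene of inflammatory monocytes, had 4.54 ± 0.14 and 4.54 ± 0.23 (SD, n = 5 each), and Itga4, an integrin chain used in adhesion to endothelium, changed by -0.09 (adjusted p = 0.533).

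Of the MS4A family, Ms4a7, a membrane protein of mature macrophages, had 4.30, 4.14, 4.61, 4.26 and 4.20 in wild type and 4.13, 4.13, 3.99, 4.61 and 4.51 in the mutant, with no direction common to the arrays (change -0.03, adjusted p = 0.938). Ms4a6d had a change of 0.19 ± 0.15 (SE, adjusted p = 0.547). Gpnmb, a glycoprotein raised in lipid-laden macrophages, had 6.20, 5.57, 5.88, 5.82 and 6.31 against 5.35, 5.89, 5.99, 5.94 and 6.11. Its change of -0.10 ± 0.17 (SE, adjusted p = 0.789) was the lowest of the 41 genes.

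A few arrays held most of the extreme values. Mutant F20 held the highest value of 15 of the 37 tested genes (40.5%), where it held that of 7.69% of all tested genes. Wild type F14_2 held the lowest value of 15, where it held that of 13.6% of all tested genes, and wild type F11 the lowest of 9. The median deviation of the 37 genes from their own means was -0.23 on F14_2 and -0.15 on F11, against -0.02 to 0.02 on the other 3 wild-type arrays. In the mutant it was 0.20 on F20, 0.05 to 0.10 on F12, F18 and F19, and -0.09 on F13. Of the 32 tested genes with a higher mean in the mutant, 22 had a change more than 1.5 times smaller, or reversed, without at least 1 of the arrays. That held for 10 genes each without F14_2 (among them Tyrobp, Mrc1, Lyve1 and Folr2) and without F20 (among them Cd68, Fcer1g, C1qa, C1qb and Pf4). Without mutant F12 the change of Fcgr3 was 0.11. The median over all tested genes stayed between -0.03 and 0.03 on every array. These extremes were not particular to the myeloid genes. The mean of 7 adventitial fibroblast genes was also lowest on F14_2 (9.87) and highest on F20 (10.48). Other lists differed: class II genes were lowest on F11 (6.08) and highest on F15 (6.81), brown fat genes on F17 (7.39) and F12 (8.68).

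**Figure D3:**
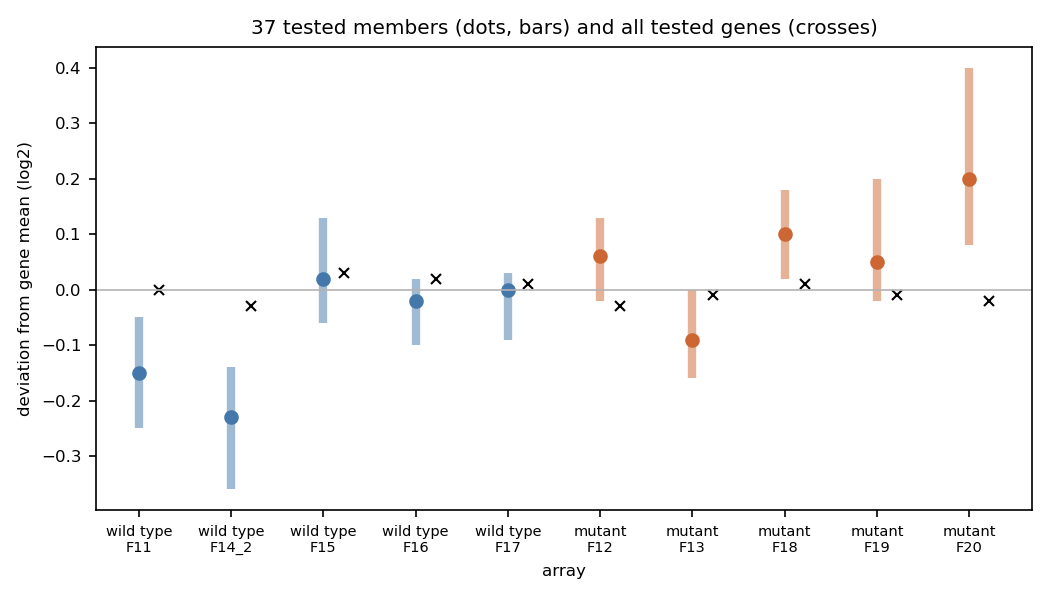
Median deviation of the 37 tested genes from their mean over 10 arrays (dots, with bars from the lower to the upper quartile over genes) on each array, in log2 units, and the same median over all tested genes (crosses). Wild type F11 and F14_2 (-0.15 and -0.23) lie lowest and mutant F20 (0.20) highest, while mutant F13 (-0.09) lies below the other 3 wild-type arrays.

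**Figure D4:**
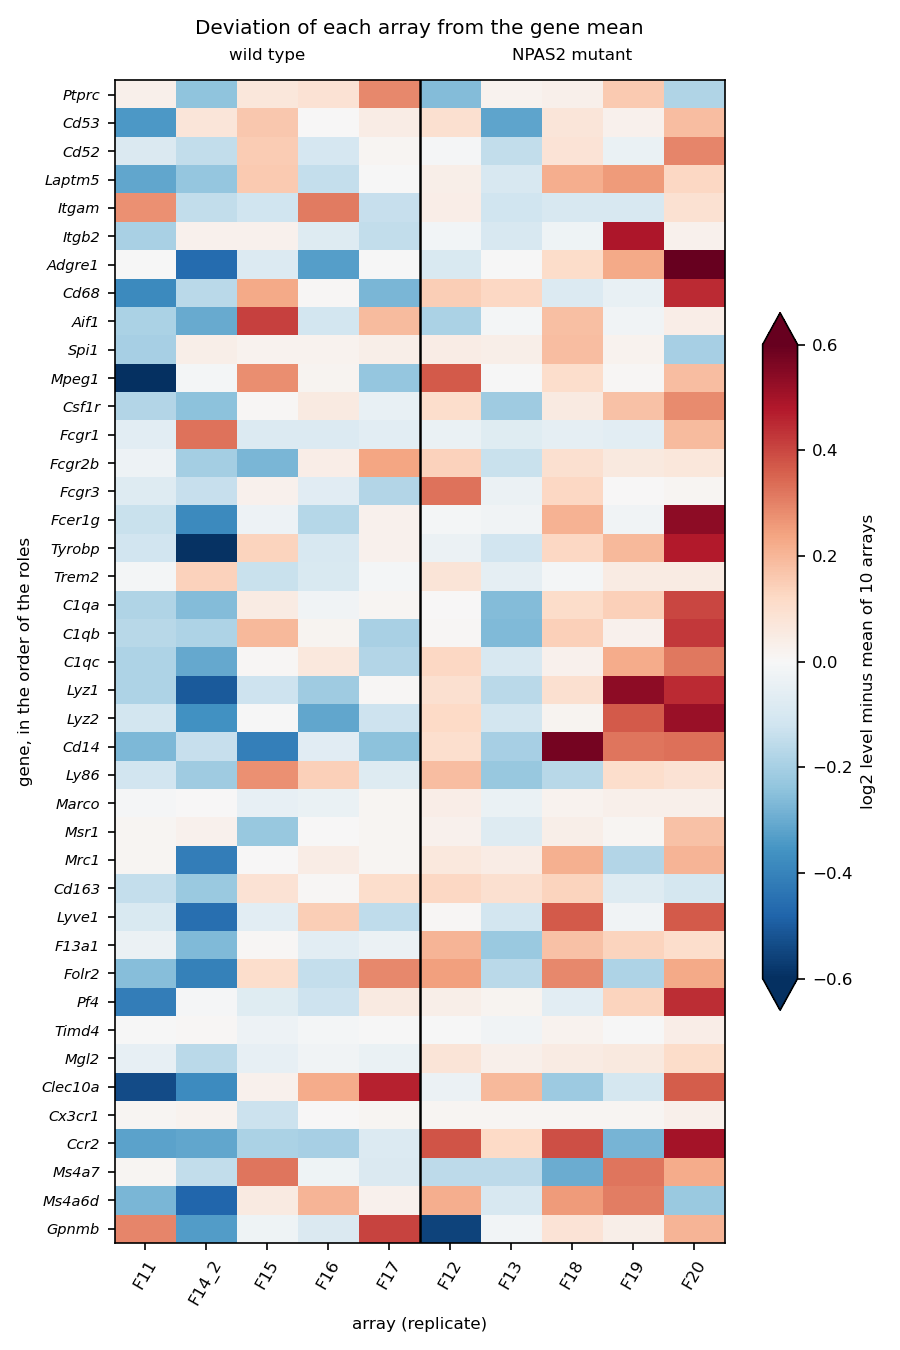
Deviation of each array (columns, wild type left of the line) from the gene's mean over 10 arrays, in log2 units, for all 41 genes (rows). The columns of wild type F14_2 (mostly blue, lower) and mutant F20 (mostly red, higher) stand out, and the rows of Timd4 (2.36 to 2.43) and Marco (2.69 to 2.78) are nearly blank.

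Genes that act on or within macrophages were examined from lists beside the 41. Among growth factors and chemokines, 14 had a probe set, 8 were tested and 0 were called by limma, with 2 at an unadjusted p under 0.05. These counts and those of the next lists stand against 15% of all tested genes in either direction and 5.21% with a higher mean in the mutant. Ccl9, a chemokine made by myeloid cells, had 6.12, 5.81, 6.22, 6.06 and 6.32 in wild type and 6.56, 6.27, 6.65, 6.65 and 6.97 in the mutant, a change of 0.51 ± 0.13 (SE, adjusted p = 0.125). The related Ccl6, named after its values were seen, had a change of 0.56 ± 0.18 (SE, adjusted p = 0.188), and for both genes mutant F20 was highest and wild type F14_2 lowest. Csf1 (6.59 and 6.64) differed by 0.05, and Ccl2, the ligand of Ccr2, was at 3.11 and 3.15, too dim to be tested. Among transcription factors of macrophages, 11 had a probe set, 10 were tested and 0 were called, with 3 at an unadjusted p under 0.05. Cebpb, a factor of myeloid cells and of fat cells, had 9.13, 9.21, 9.58, 9.54 and 9.54 against 10.34, 10.36, 9.74, 9.75 and 10.08. Its groups did not overlap and its change was 0.65 ± 0.15 (SE, adjusted p = 0.114), with the highest values on F12 and F13, not on F20. The other 2 of the 3, named after their values were seen, were Nr1h3, the liver X receptor alpha (0.44, adjusted p = 0.176), and Zeb2 (-0.26, adjusted p = 0.177).

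Signalling genes downstream of Tyrobp and Fc receptors gave 0 calls among 6 tested of 12 with a probe set, with 0 at an unadjusted limma p under 0.05. The smallest p there was that of Ncf1, a subunit of the phagocyte oxidase (0.17, adjusted p = 0.431). Of 12 further complement genes 11 were tested, with 0 called by limma and 1 at an unadjusted p under 0.05. That was Cfp, which encodes properdin, an activator of the alternative pathway made by leukocytes, with 4.47, 4.51, 4.59, 4.61 and 4.73 against 4.83, 4.62, 4.90, 5.06 and 5.02. Its change was 0.30 ± 0.09 (SE, adjusted p = 0.167), and mutant F13 was again the 1 mutant array within the wild-type range. Of 12 genes of inflammation and alternative activation only 2 were above the filter, Ptgs2 (-0.17, adjusted p = 0.859) and Retnla (0.34, adjusted p = 0.406), and 0 were called or had an unadjusted limma p under 0.05. Il1b, Tnf, Il6 and Nos2 were between 2.08 and 3.04 on all arrays, under the array medians.

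No gene in the lists of other cell types was called by limma. At an unadjusted p under 0.05 there were 6 brown fat genes, all higher in the mutant, and 4 smooth muscle genes, all lower, with 1 endothelial gene lower, 1 fibroblast gene higher and 2 fat cell genes, 1 in each direction. The mean of 10 brown fat markers was 7.39 to 7.89 in wild type and 8.13 to 8.68 in the mutant, with no overlap, and 9 of the 10 had a higher mean in the mutant. Of 8 smooth muscle markers 7 had a lower mean in the mutant, with a list mean of 11.12 to 11.41 in wild type and 10.99 to 11.31 in the mutant. The other was Des (change 0.48), at 8.41 on mutant F12 and at most 7.17 on the other arrays. F12 was also the array richest in skeletal muscle signal (10.55). Des is part of the smooth muscle mean, which may thus carry skeletal muscle signal, and this was not tested. With the brown fat mean as a covariate the median change of the 41 genes was 0.25, against 0.14 without it. The change was above 0 for 36 of the 41 genes, and that of Fcgr3 was -0.01. Since the brown fat mean did not overlap between groups, it cannot be told apart from the mutation in this fit. With the smooth muscle mean, added after seeing the data, the median was 0.14. Red cell genes were measured as well. Alas2, an enzyme of red cell precursors, lay between 6.57 and 8.28 in wild type and between 6.97 and 9.22 in the mutant, highest on F13, where the macrophage genes were low. Slc4a1, the red cell anion exchanger, was highest on F20 (6.30). Of 8 neutrophil genes 2 were tested and 0 were called by limma or had an unadjusted p under 0.05. S100a8 lay between 2.70 and 4.12 in wild type, highest on F11, and between 2.90 and 3.48 in the mutant (change -0.32, adjusted p = 0.545). S100a9 lay between 3.12 and 3.73 in wild type and between 3.12 and 3.56 in the mutant (change -0.12, adjusted p = 0.631). The granule genes Ngp, Camp, Ltf, Mpo and Elane were at or below 2.61 on all arrays. Of 9 lymphocyte genes the B cell gene Ms4a1 alone was tested, with 3.70 to 3.93 in wild type and 3.71 to 3.92 in the mutant (change 0.04, adjusted p = 0.794). The T cell genes Cd3d, Cd3e and Cd3g and the B cell gene Cd79a were at or below 2.69. The mean of 9 lymphocyte genes was 2.73 to 2.77 in wild type and 2.75 to 2.88 in the mutant, and that of 8 neutrophil genes 2.52 to 2.74 and 2.50 to 2.61. The part of these cell types in the myeloid values beyond these measurements was not tested.

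The upper quartile of the log2 levels was 5.40 to 5.55 on each array, and correlations between arrays over all probe sets were 0.986 to 0.996. The smooth muscle gene Acta2 stood at 14.42 and 14.38 and the fat cell gene Adipoq at 12.95 and 13.06 in wild type and mutant. Some other genes of their lists differed more. The smooth muscle genes Myh11 (-0.18) and Lmod1 (-0.26) were lower in the mutant without overlap. Of the fat cell genes, Lep changed by -0.78 and Cidec by 0.28. Skeletal muscle genes varied between arrays, with a list mean of 8.69 to 10.55 on 4 arrays and at most 5.91 on the other 6. Without the 4 arrays, which left 2 mutant arrays, 1 of 37 tested genes had an unadjusted limma p under 0.05, against 9 with all arrays. In that fit 0 probe sets were called, against 48 with all arrays, and the share of all tested genes at such an unadjusted p was not computed.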

How the data were processed

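Total RNA was hybridised to Affymetrix MOE 430V2 arrays, 1 per sample, and the deposited log2 values of 45101 probe sets were used as the authors gave them. GCRMA and MAS5 are named in the submitters' processing notes, which do not say which of them made these values. Their range (1.10 to 14.74) and the similar array medians are those of a log2 scale. Probe sets were named through the platform annotation, and 34958 had a single gene, 34754 of them updated through RefSeq. Each gene was read on its probe set with the highest mean over all 10 arrays. Probe sets that exceeded the median of the array on 5 or more of 10 arrays (22340 without the 64 controls) were fitted in R 4.3.3 with limma 3.58.1 (lmFit and eBayes), mutant minus wild type, with Benjamini-Hochberg adjustment over all of them and a threshold of 0.05. Exact two-sided permutation tests of 5 against 5 arrays cannot go below p = 0.00794. The fit was tested on simulated data of 22340 probe sets, where it recovered 50 of 100 changes of 0.5 and 94 of 100 changes of 1 (log2), with 10 false calls among 154. Noise was drawn independently for each probe set, so shifts shared by many genes on an array, seen in the real data, were left out. Changes smaller than 0.5 were not simulated, and the largest change of the 41 genes was 0.45. Genes given array by array were those with an unadjusted p under 0.05 and the brightest of each role, and any other was named after its values were seen. The genes and lists were chosen with earlier results of these data known. The number of arrays limits the precision, and scan dates were not used here. A planned comparison of protein sequences between related genes was not run.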

Additional observations from a re-analysis of the deposited data

Results flagged for a closer look

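Arrays that stood apart from the other 4 of their group by Dixon's criterion were found in 13 of 82 groups (15.9%), in 10 genes. The criterion would flag about 1 in 20 of independent, normally distributed groups. The 82 groups share the same 10 arrays, and the share over all tested genes was not computed, so no excess can be read from this count. For 4 genes the array was wild type F14_2. It had 7.73 for Mrc1 (others 8.15 to 8.19), 8.76 for F13a1 (8.96 to 9.03) and 3.67 for Mgl2 (3.78 to 3.81), each the lowest, and 3.60 for Fcgr1 (3.19 to 3.21), the highest. Mutant F13 was lowest for F13a1 at 8.80 (others 9.13 to 9.23) and for Fcgr2b at 6.82 (7.01 to 7.09). Mutant F20 was highest for Fcgr1 at 3.46 (3.20 to 3.23) and for Cx3cr1 at 3.05. Wild type F15 was lowest for Msr1 at 2.94 (3.17 to 3.19) and for Cx3cr1 at 2.89 (3.02 to 3.04). Itgb2 had 5.39 on mutant F19 (others 4.81 to 4.93), Spi1 had 3.02 on wild type F11 (3.24 to 3.25), and Gpnmb had 5.35 on mutant F12 (5.89 to 6.11). Fcgr1, Spi1, Msr1 and Cx3cr1 lay near or below the array medians of 3.14 to 3.20.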

How the results depend on the processing

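None of the myeloid genes had an adjusted p under 0.05 under any alternative run, nor one under 0.1 in the reported fit. Cd14 had 0.0895 with the 75th percentile filter and Ccr2 0.0573 without mutant F19. The brown fat covariate moved the median change from 0.14 to 0.25 over all 41 genes and from 0.13 to 0.25 over resident markers. The brown fat mean did not overlap between groups, so results with this covariate cannot separate brown fat signal from the mutation. Without wild type F14_2 these medians were 0.09 and 0.07, and without the 4 arrays richest in skeletal muscle signal 0.09 and 0.11. Genes without overlap numbered 0 of 21 with the 75th percentile filter and 2 of 37 after quantile normalisation. They numbered 4 of 37 without these 4 arrays and 1 to 6 of 37 with an array left out (6 without mutant F13). Smaller groups separate more easily, and the share over all tested genes was not computed in these settings. No rise can therefore be read from these counts without overlap. Covariates, array weights and other variance models give no such count. With the 75th percentile filter 19 of 21 genes had a higher mean. Genes at an unadjusted p under 0.05 numbered 5 with the brown fat or the skeletal muscle covariate, 1 without the 4 arrays, and 4 to 14 with an array left out. For these counts too, the share over all tested genes was not computed. Of all probe sets 48 were called, 17 with no filter, 141 with the 75th percentile filter, 1, 7 and 8 with the brown fat, skeletal muscle and smooth muscle covariates, 13 by ordinary one-way analysis, 0 without the 4 arrays and 9 to 43 with an array left out.

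Of 922 changes of single genes under 23 alternatives, 41 reversed, in 12 genes; the cause was not tested. With the brown fat covariate these were Fcgr3 (-0.01), Gpnmb (0.52) and Ptprc (0.29), and with the skeletal muscle covariate Cd53 (-0.04). With the smooth muscle covariate they were Aif1 (-0.13), Clec10a (-0.06), Fcgr1 (0.00) and Ly86 (0.01). Aif1 also reversed with median centring (-0.02) and array weights (-0.01), as Fcgr1 did with array weights (0.01). Quantile normalisation reversed Ly86 (0.04) and Ms4a7 (0.02), and averaging probe sets reversed Cd53 (0.00), Fcgr1 (0.02) and Ms4a7 (0.00). Without the 4 arrays Cd52 (-0.02), Cd53 (-0.10) and Trem2 (-0.03) reversed. Leaving out arrays gave ranges of -0.07 to 0.10 for Aif1, -0.06 to 0.11 for Cd53, -0.04 to 0.21 for Clec10a, -0.06 to 0.06 for Fcgr1, -0.20 to 0.03 for Gpnmb, -0.06 to 0.06 for Ly86, -0.11 to 0.05 for Ms4a7 and -0.01 to 0.09 for Spi1. No paired analysis was possible because the groups share no replicate identifiers. Signal over background limits Itgam, Marco, Timd4 and Cx3cr1, which were below the median on every array.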

Other observations

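Genes of antigen presentation by class II molecules varied between arrays but hardly between groups. Of 6 with a probe set 5 were tested, with 0 called by limma and 0 at an unadjusted p under 0.05, and the list mean ran from 6.08 (F11) to 6.81 (F15) in wild type and from 6.30 to 6.60 in the mutant. Of 7 mast cell genes 5 were tested, with 0 called by limma and 0 at an unadjusted p under 0.05, and the list mean was 3.99 to 4.26 in wild type and 4.03 to 4.33 in the mutant. For all 5 lymphatic endothelial genes the mutant mean was the higher one (median change 0.12), a list that bears on Lyve1, and 0 of the 4 tested were called by limma or had an unadjusted p under 0.05.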
